A study of Homo sapiens with 12 samples.

Results

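The HSP70 and HSP110 chaperone genes were followed here across all libraries of a study of the transcription factor NFE2L1 and the proteasome inhibitor bortezomib. The set held the 10 genes HSPA1A, HSPA1B, HSPA1L, HSPA2, HSPA4, HSPA4L, HSPA6, HSPA8, HSPA9 and HSPH1. They were chosen by name from the 58676 genes of the deposited expression table, with earlier results of these data known. The cells were A549, a long-used human cell line from a lung carcinoma. They were present as a control line (labelled Control1) and as 2 lines labelled NFE2L1 KO1 and KO2. Each line received DMSO vehicle or 200 nM bortezomib for 4 h, giving 6 groups with 2 libraries each. One library of each group carried the suffix R2. Its partner carried R1 in the KO lines and no suffix in the control line, and values below are given in that order, the library with R1 or no suffix first and R2 second. The labels do not say whether a line is 1 clone, nor whether the 2 libraries of a group came from separate cultures, so p-values measure only the spread between these libraries. Since only 1 control line was used, the knockout and any other difference between lines cannot be told apart.

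HSP70 proteins are ATP-driven chaperones that hold short hydrophobic stretches of unfolded proteins. J-domain proteins bring them clients and trigger ATP hydrolysis, and nucleotide exchange factors, including the HSP110 proteins, let the client go. Heat shock factor 1, HSF1, switches on the inducible members when misfolded proteins build up, by binding heat shock elements, which are inverted repeats of the unit GAA. Bortezomib blocks the proteasome, and NFE2L1 is known for raising the expression of proteasome genes when the proteasome is blocked.

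Library depth was 13211608 to 23819258 reads assigned to genes. Mitochondrially encoded genes took 12.3% to 19.3% of reads in the 6 R2 libraries and 5.44% to 6.80% in the other 6. NFE2L1 itself was at 72.7 and 151 FPKM (fragments scaled by gene length and library depth) in control vehicle, 8.45 and 14.8 in KO1 vehicle and 18.6 and 33.6 in KO2 vehicle. The KO mean minus control was -2.57 on the log2 scale (limma adjusted p = 0.0662, or 0.000112 with the suffix as a block). Where in the gene it was disrupted is not given in the labels. The epithelial keratins KRT8 (126 to 703 FPKM), KRT18 (112 to 586) and KRT19 (8.12 to 153) were present in every library. The epithelial markers EPCAM (1.25 to 10.6) and CDH1 (1.42 to 9.53) were present at lower levels. The leukocyte markers PTPRC, CD3E and MS4A1 were at 0 in 10, 9 and 11 of 12 libraries. The 3 fibroblast markers summed to 1.56 to 5.45 FPKM in vehicle and 6.16 to 23.5 in bortezomib. Nearly all of it was COL1A1 (1.42 to 23.3), while COL3A1 reached at most 0.225 and DCN at most 0.0425 FPKM.

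Stretches upstream of the RefSeq starts of 4 inducible members and of the constitutive HSPA8 are shown because they hold matches to the heat shock element and because the HSPA1A and HSPA1B copies are nearly the same there. They come from the RefSeq promoter table on GRCh38.p14. Those of HSPA8 and HSPA4L overlap annotated exons (GENCODE release 29) and lie within the gene spans of the deposited table, downstream of the gene starts given there, so only the match and its flanks are printed. Capitals mark matches to 2 units (GAANNTTC or TTCNNGAA) or 3 units of the element (both 2-unit forms in a row, sharing their middle unit), searched on both strands in the 250 bases before each RefSeq start.
HSPA1A, chr6:31815397-31815463, plus strand: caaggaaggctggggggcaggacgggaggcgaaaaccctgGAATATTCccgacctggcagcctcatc
HSPA1B, chr6:31827593-31827680, plus strand: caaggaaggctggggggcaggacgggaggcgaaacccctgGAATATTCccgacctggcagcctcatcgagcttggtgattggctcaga
HSPA6, chr1:161524320-161524407, plus strand: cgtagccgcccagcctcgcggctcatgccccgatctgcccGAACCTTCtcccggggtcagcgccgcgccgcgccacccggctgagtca
HSPA6, chr1:161524426-161524518, plus strand: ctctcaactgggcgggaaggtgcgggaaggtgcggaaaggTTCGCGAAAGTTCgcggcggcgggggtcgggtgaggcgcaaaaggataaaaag
HSPA8, chr11:123062346-123062374, minus strand: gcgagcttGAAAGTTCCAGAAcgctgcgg
HSPA8, chr11:123062171-123062199, minus strand: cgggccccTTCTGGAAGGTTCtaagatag
HSPA4L, chr4:127782144-127782167, plus strand: ccagatctTTCTCGAAcccgcagc

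A 2-unit match was present in 11.6% and a 3-unit match in 0.441% of all 34943 promoter windows of that length. Upstream of HSPA1A and HSPA1B, 235 of 249 aligned bases were equal (94.4%), and each window held 1 match of 2 units, spelled identically. HSPA1L lies head to head with HSPA1A, and its window overlaps that of HSPA1A by 241 bases, so its single match is the same site read from the other strand. HSPA6 had 3 matches of 2 units, 2 of which form 1 match of 3 units, and HSPA8 had 2 matches of 3 units. HSPA4L had a match in 1 of its 3 windows. No match was found in the windows of HSPA2, HSPA4, HSPA9 and HSPH1, which says only that these letters are not in those 250 bases. The core TGACNNNGC bound by the family of NFE2L1 with its MAF partners was found in 10.9% of all windows and, among the members, in HSPA6 and in the third window of HSPA4L. A match is a description of letters and not a binding site.

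Bortezomib raised the inducible cytosolic HSP70 genes and the HSP110 genes HSPH1 and HSPA4L in the mean of the 3 lines. HSPA6 went from under 1 FPKM to at least 216 FPKM, HSPA1A and HSPA1B rose about as much as each other, and HSPH1 and HSPA4L rose less. Of the 10 members, all of which passed the filter of a mean of 1 FPKM, 5 were called higher and 0 lower in the mean of the 3 lines (limma on log2(FPKM + 1), Benjamini-Hochberg adjusted p under 0.05), where 11.6% of the 12194 genes tested were called in either direction and 4.85% higher. HSPA6 passed that filter only through its bortezomib libraries, so its calls and p-values here and below are a description. With the suffix as a block 8 were called higher, but 54.9% of all genes were then called, 27.0% higher. The median log2 change of the members was 1.504, against -0.01 over all genes tested. In all 6 suffix pairs (the 2 libraries of 1 line with like suffix), 8 members were higher with bortezomib, a pattern shown by 24.8% of all genes. Within single lines, HSPA1A, HSPA1B and HSPA6 were called higher in each. The share of all genes called was 0.467% for the control line, 0.238% for KO1 and 0.320% for KO2. The blocked fit called 7, 8 and 9 members there, against 32.4%, 27.7% and 27.0% of all genes.

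**Figure D1:**
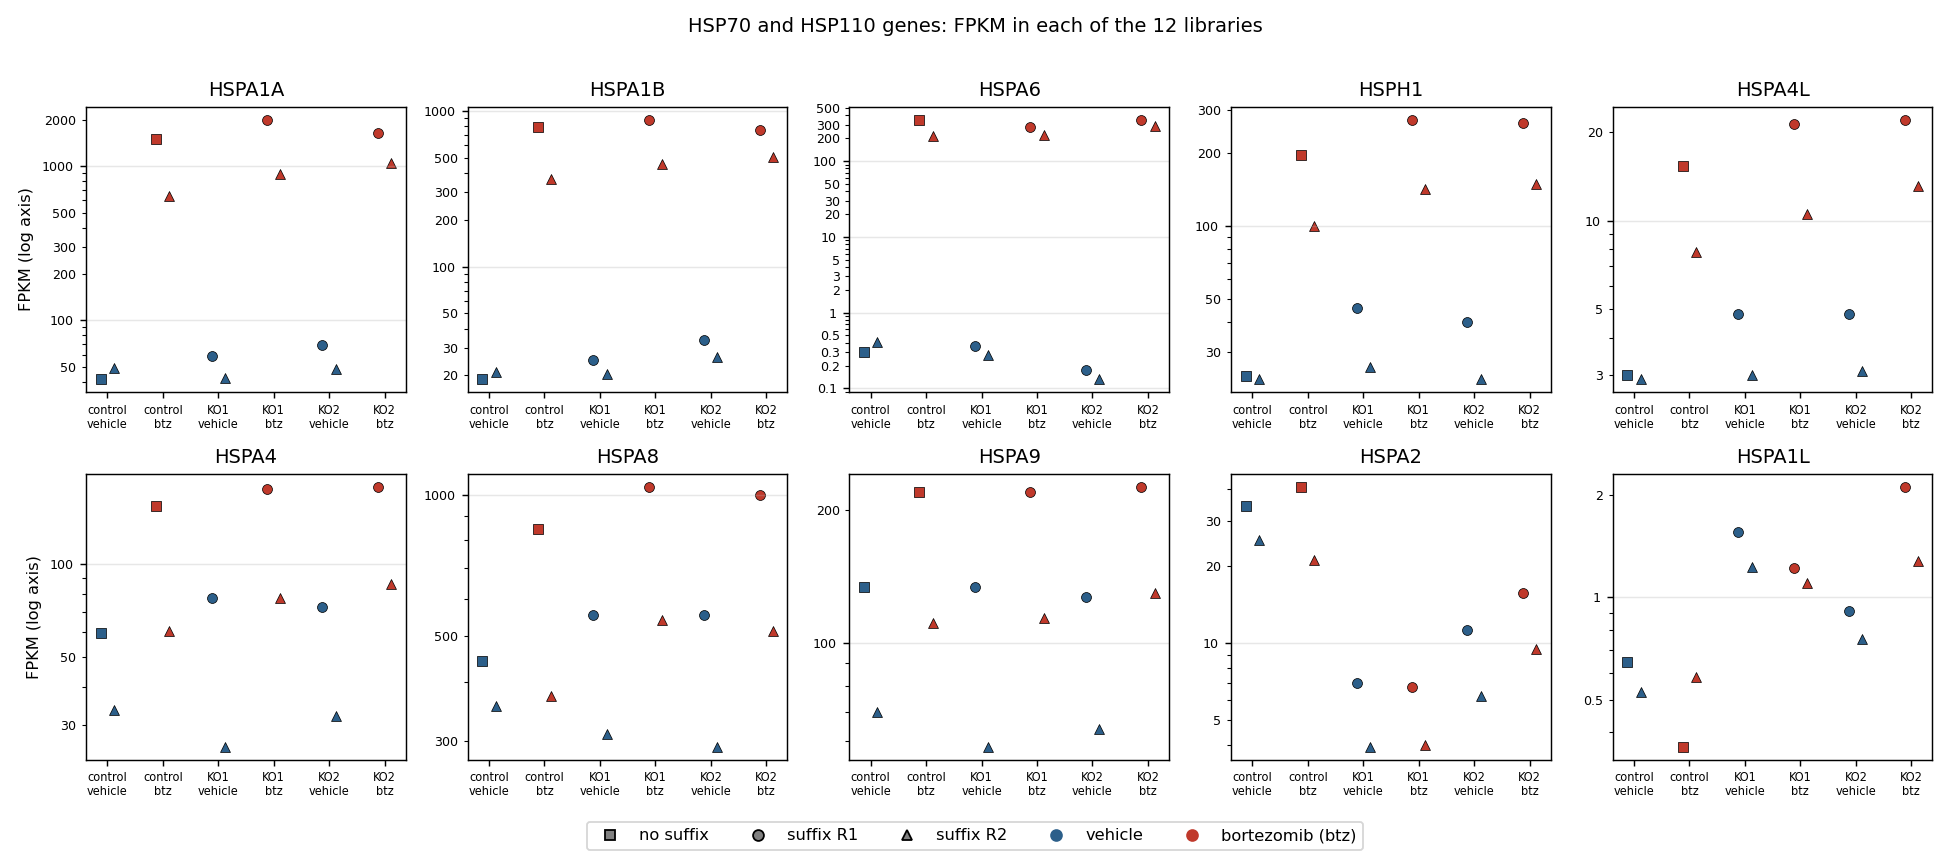
FPKM of each member (log axis) in the 12 libraries, by line and treatment; squares have no suffix, circles R1 and triangles R2, blue vehicle and red bortezomib. HSPA1A, HSPA1B, HSPA6, HSPH1 and HSPA4L show no overlap between treatments. For HSPA2 and HSPA1L the control line lies apart from both KO lines, which overlap each other, and HSPA1L rests on few reads.

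HSPA1A and HSPA1B encode the near-identical stress-inducible cytosolic HSP70 and lie as neighbours in the class III region of the major histocompatibility complex (chr6:31815464-31817946 and chr6:31827735-31830255, plus strand, positions of the deposited table). In vehicle, HSPA1A was at 41.5 and 48.8 FPKM in the control line, 58.8 and 42.1 in KO1 and 68.8 and 48.2 in KO2. With bortezomib the control line had 1495 and 639, KO1 2000.4 and 886, and KO2 1645 and 1045. Every bortezomib library lay above every vehicle library, as for HSPA1B, HSPA6, HSPH1 and HSPA4L and for 4.35% of all genes, and the R2 library was the lower of each bortezomib pair. HSPA1B went from 18.9 and 21.1 to 793 and 366 FPKM in the control line. In KO1 it went from 25.1 and 20.4 to 878 and 459, and in KO2 from 33.9 and 26.2 to 759 and 505. The pairwise ratio of bortezomib to vehicle ran from 13.1 to 36.1 for HSPA1A and from 17.4 to 42.0 for HSPA1B, with both ends of both ranges in the control line. The log2 change over the 3 lines was 4.54 (SE 0.34, limma adjusted p = 0.000141) for HSPA1A and 4.59 (SE 0.30, adjusted p = 6.08e-05) for HSPA1B.

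Of the 100-base stretches of their transcripts, 69.9% of those of HSPA1A and 72.7% of those of HSPA1B occur in another gene. How the authors' counting divided such reads between the copies, or whether it left them out, is therefore uncertain. The ratio of HSPA1A to HSPA1B FPKM was 1.84 to 2.34 in vehicle and 1.74 to 2.28 in bortezomib, overlapping ranges. Summed to 1 gene, the pair rose by 4.57 on the log2 scale (adjusted p = 0.000122). The calls of these copies within a single line rested on both libraries of each group. Without any 1 of the 4 libraries of a line, HSPA1A was no longer called there (adjusted p 0.0627 to 0.284 for the control line, 0.0681 to 0.158 for KO1, 0.116 to 0.227 for KO2). HSPA1B was kept only without the R2 bortezomib library of the control line or of KO1. HSPA1A also missed the threshold after rescaling every library to a common sum, for the control line (adjusted p = 0.0632) and for KO1 (0.0541). The call of both genes in the mean of the 3 lines held without any 1 of the 12 libraries.

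HSPA6 (chr1:161524540-161526910, plus strand) encodes an HSP70 of human cells that is known for being almost silent without stress. In vehicle it was at 0.301 and 0.406 FPKM in the control line, 0.365 and 0.273 in KO1 and 0.176 and 0.131 in KO2, from 6 to 18 reads per library. After bortezomib the same lines had 351 and 216, 284 and 221, and 344 and 293 FPKM, from 8896 to 15954 reads. The pairwise ratio was 533 to 2228 with a median of 989, and the vehicle reads set its precision. The log2 change was 7.79 (SE 0.20, limma adjusted p = 5.36e-08) with 1 FPKM added and 9.59 with 0.1 added, so its size on this scale depends on that constant. HSPA6 was called in every line under every setting that kept all libraries. These calls are a description, since only its bortezomib libraries carried it past the filter. Of its transcript stretches, 27.6% are shared with HSPA7, a neighbouring HSPA6-like pseudogene. HSPA7 had 0 reads in the 6 vehicle libraries and 13 to 34 in each bortezomib library, 143 in all. That is at least 51.7-fold higher than a floor of 3 reads over the vehicle group.

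The HSP110 proteins, HSPH1, HSPA4 and HSPA4L, act as nucleotide exchange factors for HSP70 and hold unfolded clients. HSPH1 (chr13:31134974-31162388, minus strand) was at 24.1 and 23.3 FPKM in control vehicle, 45.9 and 26.2 in KO1 and 40.1 and 23.2 in KO2. In bortezomib it reached 195 and 99.7, 273 and 141, and 264 and 148 FPKM, with no overlap between treatments and a log2 change of 2.54 (SE 0.32, limma adjusted p = 0.00189). HSPA4L (chr4:127781821-127840733, plus strand) was lower, at 3.00 and 2.89, 4.84 and 2.99, and 4.82 and 3.09 FPKM in vehicle. It rose to 15.3 and 7.85, 21.4 and 10.5, and 22.0 and 13.1 FPKM in bortezomib, a log2 change of 1.74 (SE 0.26, adjusted p = 0.00333). These 2 genes were not called within single lines without the block (adjusted p 0.0879 to 0.174) and were called in each line with it. HSPH1 passed in the control line and KO2 also under quantile normalization, under voom and without mitochondrial genes (adjusted p 0.0365 to 0.0495).

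HSPA4 (chr5:133051962-133106449, plus strand), the constitutive HSP110, was at 59.8 and 33.5 FPKM in control vehicle, 77.5 and 25.6 in KO1 and 72.2 and 32.0 in KO2. Bortezomib-treated libraries had 154 and 60.7, 175 and 77.5, and 177 and 85.9 FPKM. Treatments overlapped, since the R2 bortezomib libraries came close to the vehicle libraries without R2, while within each pair the bortezomib library was 1.81 to 3.03 times the vehicle library. Its log2 difference was 1.27 (SE 0.43), not called without the block (limma adjusted p = 0.0929) and called with it (1.9e-05) or with the reads recovered from the FPKM (voom, 0.0459).

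**Figure D2:**
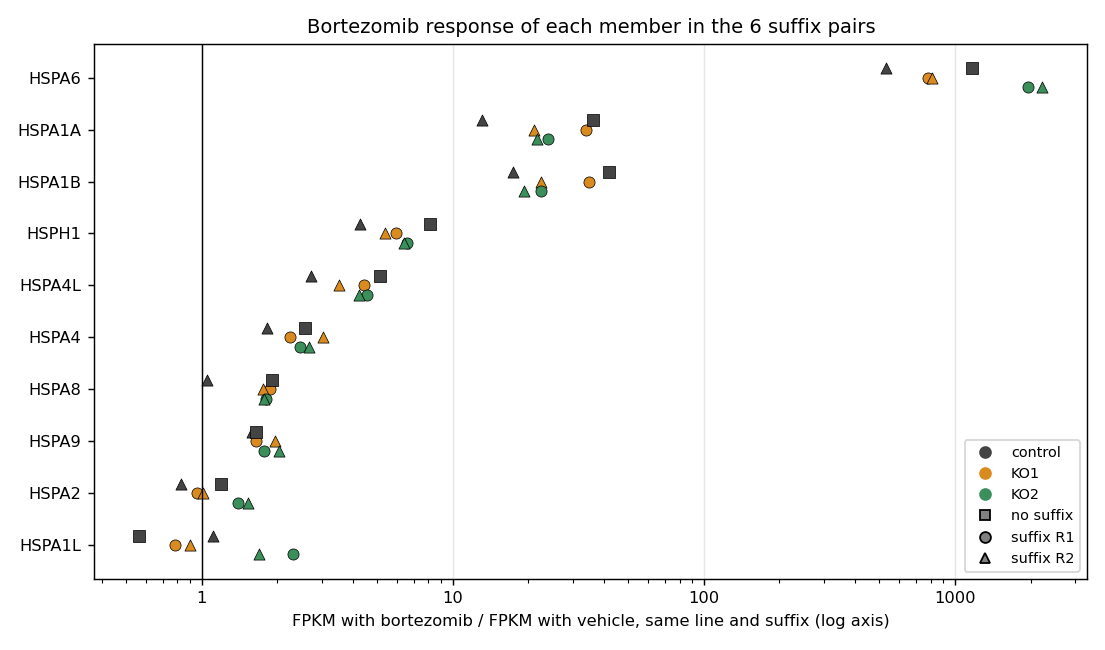
Ratio of FPKM with bortezomib to FPKM with vehicle (log axis) for each member in the 6 suffix pairs, coloured by line, with the vertical line at 1. The ratios run from medians of 989 for HSPA6 to near 1 for HSPA2 and HSPA1L, and the control R2 pair is the lowest for HSPA8 at 1.05.

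HSPA8, also called HSC70, is the constitutive cytosolic HSP70 (chr11:123057489-123063230, minus strand). It was at 442 and 355 FPKM in control vehicle, 556 and 309 in KO1 and 555 and 291 in KO2. With bortezomib values were 846 in the first control library, 1039 and 541 in KO1 and 1000.05 and 514 in KO2, while the R2 control library was at 372. The control R2 pair stood at a ratio of 1.05, the other 5 pairs between 1.75 and 1.91. The log2 difference of 0.73 (SE 0.38) was not called without the block (limma adjusted p = 0.252) and was called with it (0.000643). With the block HSPA8 was called in KO1 (0.0130) and KO2 (0.0154) and not in the control line (0.0808).

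HSPA9, or mortalin, is the mitochondrial HSP70 that drives protein import into the matrix. It was at 134 and 69.8 FPKM in control vehicle, 134 and 58.4 in KO1 and 127 and 63.9 in KO2. Under bortezomib the lines had 220.03 and 111, 219 and 114, and 225 and 129 FPKM. The lines lay close together at each suffix and treatment, and the ratio of the R2 library to its partner was 0.436 to 0.575. The pairwise ratio was 1.59 to 2.03. The log2 difference was 0.81 (SE 0.38, limma adjusted p = 0.207), called with the block (6.93e-05).

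HSPA2 and HSPA1L, both best known from testis, were not called for bortezomib over the 3 lines (log2 difference 0.16 and 0.10, limma adjusted p = 0.775 and 0.726, with the block 0.155 and 0.470). HSPA2 was higher with bortezomib in 4 of 6 pairs and HSPA1L in 3 of 6. Within KO2, HSPA2 was called higher with the block (0.49, adjusted p = 0.0389) and not without it (0.896). HSPA1L rested on 13 to 105 reads per library and passed the filter narrowly, at 0.363 to 2.11 FPKM.

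Levels of different members were compared as TPM, which scale each library to 1 sum of per-length levels. In vehicle, HSPA8 led with a median of 1364 TPM (903 to 2060 over 6 libraries), above the range of every other member. HSPA9 (median 345), HSPA4 (161), HSPA1A (155), HSPH1 (81.0), HSPA1B (75.5), HSPA2 (33.5) and HSPA4L (10.2) followed, and each overlapped the next in range. HSPA1L (2.84) and HSPA6 (0.933) lay below, without overlap. In bortezomib, HSPA1A had the highest median at 4409 TPM (1966 to 7505), followed by HSPA8 (2373), HSPA1B (2224) and HSPA6 (988), and neighbours in this order overlapped. HSPA6 thus went from the 10th to the 4th place by median. These orders rest on the deposited gene lengths. For HSPA8 that length was 4849 bases, against 2463 for its longest annotated transcript, while HSPA1A had 2483 for both. In reads, HSPA8 stood above HSPA1A in every bortezomib library but KO2 R2 (55020 against 57340). The order of HSPA1A and HSPA8 with bortezomib therefore depends on the length used.

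Summed over the 10 members, FPKM rose in each pair, by 3.26 times in the control R2 pair and by 4.87 to 5.55 times in the other 5. The sum made up 0.143% to 0.337% of all TPM in vehicle and 0.583% to 1.84% in bortezomib. HSPA8 held a median of 60.9% of the summed FPKM in vehicle and 20.9% in bortezomib. HSPA1A and HSPA1B together held 11.6% and 55.2%, and HSPA6 held 0.0398% and 8.77%. HSPA9 fell from a share of 13.4% to 4.89% while its own FPKM was higher in each pair. Shares sum to a fixed total, so a lower share is no lower level. They also rest on the deposited gene lengths. These exceed the longest annotated transcript for HSPA8 (4849 against 2463 bases) and HSPH1 (8390 against 5191). For HSPA1A (2483) and HSPA1B (2521) the lengths are equal, so the shares of HSPA8 and HSPH1 would be larger on transcript length.

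**Figure D3:**
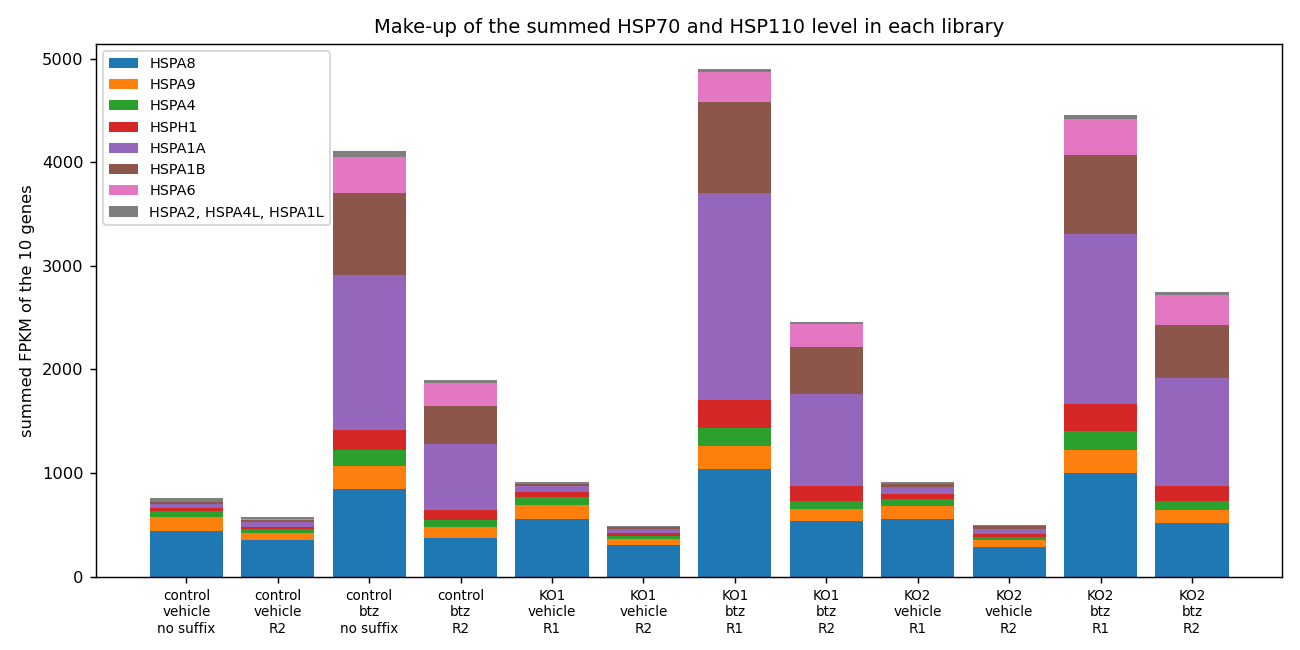
Summed FPKM of the 10 members in each library, stacked by gene. The vehicle bars (490 to 914 FPKM) are mostly HSPA8, and the bortezomib bars (1894 to 4897) are mostly HSPA1A and HSPA1B. The R2 bar is lower than its partner in each group. FPKM rest on the deposited gene lengths, and that of HSPA8 (4849 bases) exceeds its longest annotated transcript (2463).

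HSPA2 was the member that stood lower in both KO lines than in the control line at either treatment, called with the block and not without it. HSPA2 (chr14:64535905-64546173, plus strand) was at 34.3 and 25.4 FPKM in control vehicle, 6.996 and 3.93 in KO1 and 11.3 and 6.19 in KO2. With bortezomib the values were 40.7 and 21.1 for the control line, 6.72 and 3.99 for KO1 and 15.7 and 9.44 for KO2. Every KO library lay below every control library of either treatment, as did 0.722% of all genes tested. Like suffix against like suffix, the KO libraries held 15.5% to 32.9% of the control FPKM in vehicle and 16.5% to 44.8% in bortezomib. The log2 difference in vehicle was -1.99 (SE 0.41, limma adjusted p = 0.123, blocked 0.000264). The same difference under bortezomib was -1.75 (SE 0.41, adjusted p = 0.206, blocked 0.000709). Fewer cells with the transcript and less transcript per cell cannot be told apart in bulk RNA.

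The antisense gene RP11-973N13.4 overlaps HSPA2 and was at 0.127 to 2.05 FPKM. Whether counting used the strand is not given in the sources used here. The summed FPKM of the 5 epithelial markers also differed between lines, at 256 to 499.9 in the control line, 538 to 947 in KO1 and 979 to 1432 in KO2, and its part in the HSPA2 difference was not tested. Between the KO lines in vehicle, HSPA2 was lower in KO1 by a log2 difference of -0.58, not called without the block (limma adjusted p = 0.99997) or with it (0.0835). Between these lines 0 members were called, with 0.0656% of all genes called and 3.00% with the block. Without the block, 0 members had an unadjusted limma p under 0.05, and the share of all genes at that threshold is not given here.

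Comparing the KO lines with the control line, 0 members were called in vehicle and 0 in bortezomib without the block, where 0.344% and 0.164% of all genes were called. At an unadjusted p under 0.05 there was 1 member in vehicle and 2 in bortezomib, by limma on log2(FPKM + 1) and by voom alike. The share of all genes at that threshold is not given here, so these counts are a description. With the block, HSPA2 was the 1 member called in each, against 6.18% and 7.66% of all genes. HSPA1L went the other way from HSPA2. It was at 0.644 and 0.525 FPKM in control vehicle, 1.56 and 1.23 in KO1 and 0.912 and 0.755 in KO2. Bortezomib-treated libraries were at 0.363 and 0.584, 1.22 and 1.10, and 2.11 and 1.28 FPKM. Every KO library lay above every control library, on few reads, and the share of all genes with that order is not given here. HSPA1L averaged under 1 FPKM in both control groups and in KO2 vehicle. It passed the filter through the remaining KO groups, where it was higher. This order and the p-values and call that follow for HSPA1L are therefore a description and lend it no support. The log2 difference was 0.40 in vehicle (limma adjusted p = 0.9999) and 0.71 in bortezomib (0.406, with the block 0.117). It was called in bortezomib only where the unsuffixed control libraries were put on the same block level as R1 (0.0220), a fit that called 12.7% of all genes and 2 members, HSPA2 and HSPA1L.

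The other 8 members stood between -0.13 (HSPA6) and 0.44 (HSPH1) on the log2 scale in vehicle and between 0.03 (HSPA6) and 0.50 (HSPA4L) in bortezomib, none called with or without the block. The standard error of these differences was 0.29 for HSPA6 and 0.65 for HSPA4. The sign of HSPA6 in bortezomib turned under quantile normalization (-0.09) and under voom (-0.02). Like suffix against like suffix, 5 of these 8 members were above the control line in all 4 bortezomib comparisons, from HSPA1A (110% to 164% of control) to HSPH1 (136% to 149%), HSPA4, HSPA4L and HSPA8. The others reached to both sides, HSPA1B at 95.7% to 138%, HSPA6 at 80.8% to 135% and HSPA9 at 99.6% to 117%. In vehicle HSPA1A ran from 86.2% to 166%, and only HSPA4L (103% to 161%) was above the control line in all 4. Over all 10 members, 18 of 20 R2 comparisons and 14 of 20 others were above the control line in bortezomib, and 6 of 20 and 15 of 20 in vehicle. The share of all genes above the control line in such comparisons is not given here. These counts describe the libraries and cannot be read as particular to the members.

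Whether bortezomib acted more or less on the KO lines was addressed with an interaction term. The log2 difference in response ran from -0.15 (HSPA1B) to 0.34 (HSPA8), with 9 of 10 members above 0, and 0 were called with or without the block, as were 0.00% of all genes. No member reached an unadjusted p under 0.05 by limma on log2(FPKM + 1) or by voom, and the share of all genes that did is not given here. With standard errors of 0.30 (HSPA1L) to 0.92 (HSPA4) without the block, these data do not show that the responses were alike. The 2 suffixes gave different pictures. From R2 libraries alone, the response was larger than in the control line for 9 of 10 members in KO1 and 10 of 10 in KO2. From R1 against the unsuffixed control libraries it was larger for 1 and 4 of 10. Without the R2 bortezomib library of the control line, the interaction of HSPA8 was negative at -0.25. The members share these libraries and are not independent of each other, and all comparisons of 1 suffix reuse the same control pair. The median interaction over all genes tested was 0.0066 without the block. The share of all genes above 0, in the interaction or by suffix, is not given here. These counts therefore cannot be read as particular to the members.

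**Figure D4:**
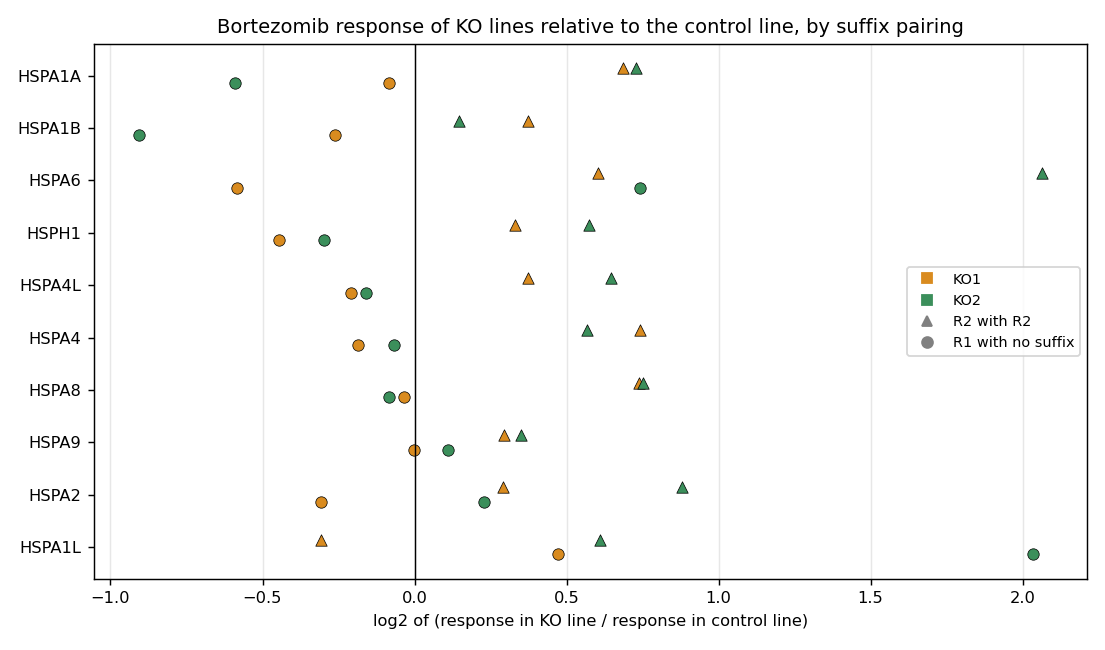
Log2 ratio of the bortezomib response (FPKM ratio to vehicle) in each KO line to that in the control line, for each member; triangles pair R2 with R2 and circles pair R1 with the unsuffixed control library, and 0 means equal response. Triangles lie right of 0 for 19 of the 20 values and circles for 5 of 20, and the share over all genes is not given.

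The partner genes of the HSP70 cycle were described by lists chosen with earlier results of these data known, and their counts are read against the same 4.85% of genes called higher and 6.76% called lower. With the suffix as a block the shares were 27.0% higher and 27.9% lower, and counts given with the block are read against those. Of 10 J-domain genes, 8 were tested. All 8 had a log2 change above 0 with bortezomib, and 5 were called higher. They were DNAJB1 (log2 change 2.80, limma adjusted p = 0.00222), the partner of HSP70 in disaggregation, and DNAJB4 (1.90), DNAJB6 (1.81), DNAJC2 (1.19) and DNAJB2 (1.06). DNAJA2 had the smallest difference at 0.40, not called without the block. DNAJB1 went from 20.9 to 54.8 FPKM over the 6 vehicle libraries to 131 to 407 over the 6 bortezomib libraries, without overlap. With the block, all 8 were called higher, where 27.0% of all genes were. The median of the list was 1.33.

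Of the 9 nucleotide exchange factors other than HSP110, 7 had a log2 change above 0 and 2 were called higher, and the list median was 0.22. BAG3, which links HSP70 to autophagy, rose by 2.89 (limma adjusted p = 0.00214), from 25.1 to 61.7 FPKM in vehicle to 163 to 456 in bortezomib. GRPEL2, an exchange factor of mitochondrial HSP70, rose by 0.89 (adjusted p = 0.0382). BAG2 stood at 0.45 and BAG6 lowest at -0.30, neither called. With the block, 4 were called higher and BAG6 lower.

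Of the 9 genes that receive HSP70 clients or tag them, HSP90AA1, the inducible HSP90, rose by 1.91 (limma adjusted p = 0.0153) and AHSA1, which stimulates HSP90, by 1.69 (0.0250). FKBP4 stood at 1.20 (0.0553) and the ubiquitin ligase STUB1 lowest at -0.16 (0.722). All but STUB1 were called higher with the block. Of the 4 genes of heat shock factors and their regulator, HSF1 rose by 0.70 (adjusted p = 0.0486), from 13.7 to 23.4 FPKM in vehicle to 26.6 to 31.3 in bortezomib. HSF2 stood at 0.71 (0.0625), HSF4 at 0.26 and HSBP1, a binding partner of HSF1, at 0.07. With the block, HSF1 and HSF2 were called.

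Among the remaining HSP70-type genes, 7 gene IDs were tested. HSPA5, the chaperone BiP of the endoplasmic reticulum, rose by 1.31 (limma adjusted p = 0.0281). HSPA12B fell by 0.58 (limma adjusted p = 0.0269), from 1.71 to 2.26 FPKM in vehicle to 0.583 to 1.16 in bortezomib. Its bortezomib libraries held 36 to 76 reads and lay on both sides of the 1 FPKM filter. Every vehicle library of HSPA12B lay above that filter and carried the gene past it, so its p-value and call are a description. HSPA12A was called at 0.57 in the mean of the 3 lines (0.0425), with the control line at 1.37 but KO1 at 0.059 and KO2 at 0.29. The interaction term of HSPA12A was -1.19, not called (limma adjusted p = 0.99999, with the block 0.0635). HSPA13 stood at 0.80 (0.167), called with the block. HSPA14 has 2 gene IDs in the table, of which ENSG00000284024 rose by 0.75 (0.0117) and ENSG00000187522 stood at 0.05 (0.912). None of the partner genes was called for the knockout without the block, in vehicle or in bortezomib. With the block, in bortezomib, 4 of the 37 partner gene IDs were called, FKBP4 and PTGES3 higher and HSPA13 and HSPA12A lower in the KO lines. The share over all genes in that fit was 7.66%.

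**Figure D5:**
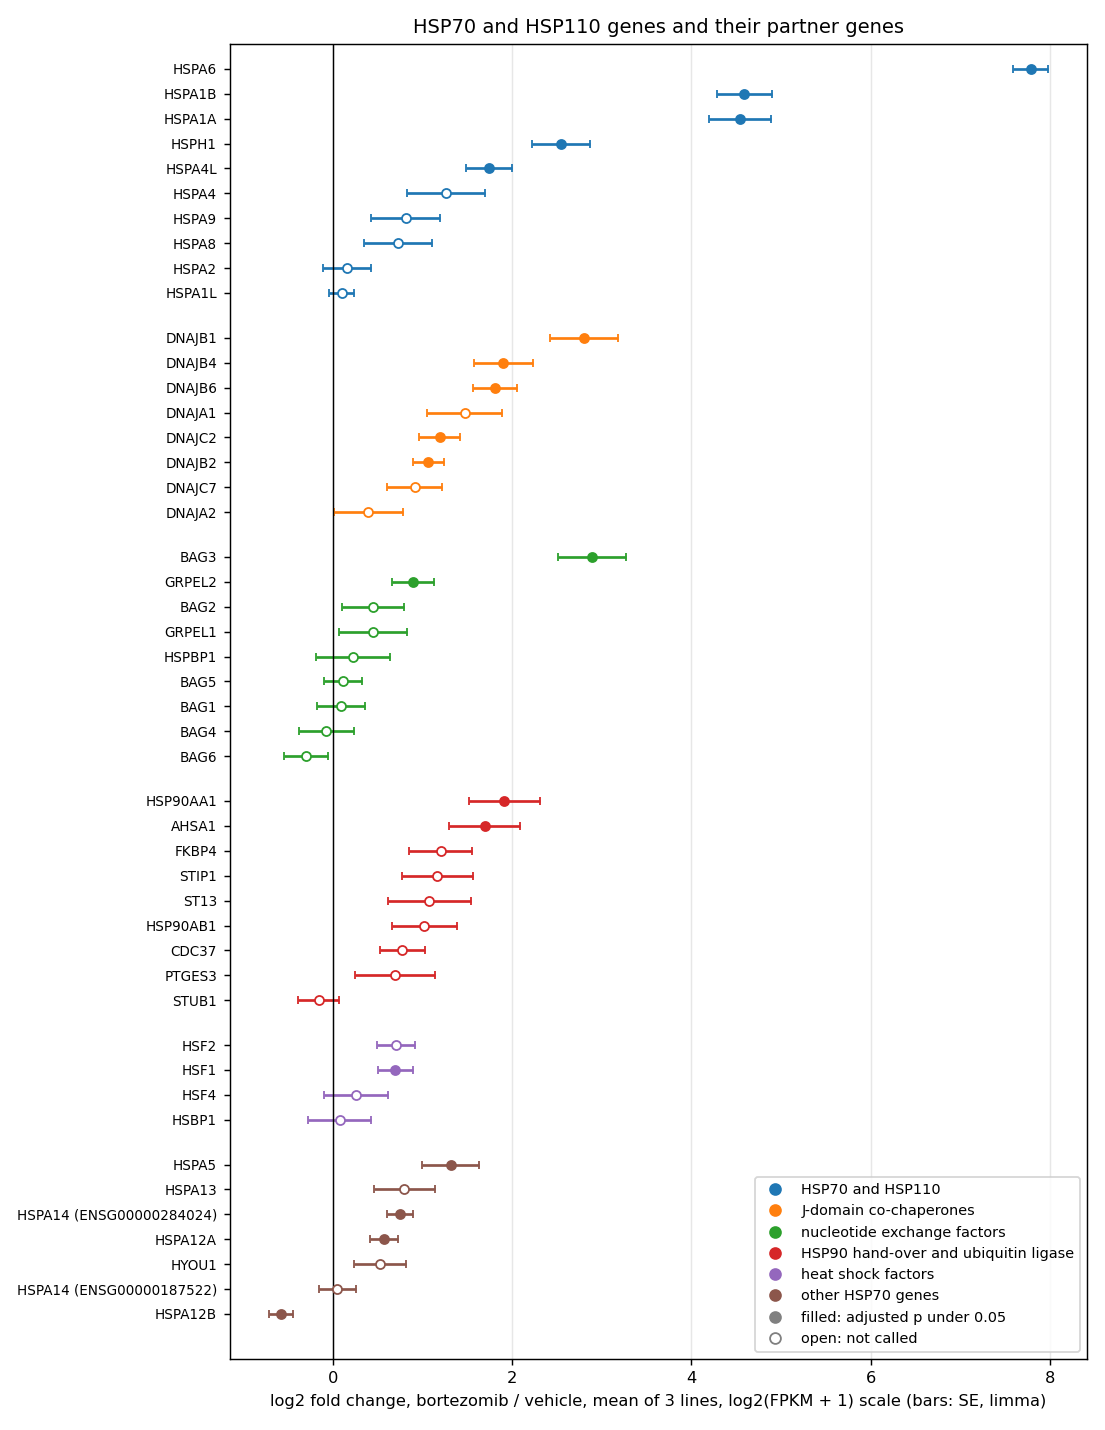
Log2 fold change of bortezomib against vehicle, mean of 3 lines, on the log2(FPKM + 1) scale with its SE (limma), for the 10 members and their partner lists; filled points have an adjusted p under 0.05. HSPA6, HSPA1B and HSPA1A lie right of every partner gene, the highest of which is BAG3 at 2.89.

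Over the 12 libraries, the genes most like HSPA1B in log2(FPKM + 1) were PPP1R15A (Pearson r 0.996), SESN2 (0.990) and ZFAND2A (0.990), and those most like HSPA6 were PGF (0.995), SESN2 (0.994) and PPP1R15A (0.991). HSPA8 was most like INPP5A (0.978), STIP1 (0.973), which is the adaptor that passes clients from HSP70 to HSP90, and EVI5 (0.973). HSPA9 was most like ZPR1 (0.994), GPN1 (0.992) and PPID (0.990). Among the members, HSPA1A and HSPA1B had an r of 0.999 and HSPA4 and HSPA9 an r of 0.982. HSPA1A and HSPA8 had an r of 0.737, and HSPA2 and HSPA1L one of -0.58. All points share 12 libraries, 2 treatments and the R2 split, so these values describe how genes sorted the libraries and carry no test.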

How the data were processed

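The deposited table holds FPKM made by the authors for 58676 genes in 12 libraries. The submitters' processing notes name CASAVA, STAR 2.5, HTSeq 0.6.1, DESeq2 and hg19, without their roles. The positions in the table are those of GRCh38 for 95.2% of genes (GENCODE release 29), HSPA9 not among them, so coordinates are given as GRCh38. Multiplying FPKM by the deposited gene length gave whole reads, within 0.1 read, for 100% of values, which gave the depths. Handling of reads that fit several genes is not given in the sources used here.

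Groups came from the labels. limma 3.58.1 in R 4.3.3 (trend) was fitted to log2(FPKM + 1) of the 12194 genes (20.8%) whose FPKM averaged 1 or more, with 6 group means and 6 residual degrees of freedom. This scale understates changes of low genes. Adjusted p-values (Benjamini-Hochberg) are over all genes tested. Same-suffix libraries deviated together (r 0.696 to 0.890 over 15 pairs of groups, 0.805 to 0.890 over the 6 pairs of KO groups), the suffix coming from the titles. The suffix was therefore also fitted as a block, with unsuffixed control libraries as a level of their own, and that value is given where it changes a call. R1 occurs only in KO lines, so blocked KO differences lean on R2. The steps were tested on simulated data in which the R2 difference was the same in every group. In the data it varied, with an R2 to partner ratio for HSPA1A of 1.18 in control vehicle and 0.427 in control bortezomib. The simulation therefore does not speak for the blocked p-values.

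The members, partner lists and tests were chosen with earlier results of these data known. Named were all members, the 3 highest and the lowest tested gene of each list, HSPA7, listed genes that were called, and for 4 members the 3 other genes with the highest r. DNAJB1, BAG3 and HSF1 had their FPKM ranges added after their values were seen. Alternatives were other constants, filters, scalings, voom on recovered reads, summed copies, and each library left out. Those combining block and rescaling, quantile normalization or a left-out library were chosen after seeing the data.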

Additional observations from a re-analysis of the deposited data

Results flagged for a closer look

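HSPA1L differed in sign between the KO lines: both KO2 bortezomib libraries lay above both vehicle libraries, and both KO1 ones lay below. In KO1 the gap was narrow, 1.220 FPKM (R1 bortezomib, 41 reads) against 1.228 (R2 vehicle, 58 reads). The log2 change was -0.14 in KO1 and 0.54 in KO2 (limma adjusted p = 0.956 and 0.524, with the block 0.597 and 0.0586). The share of all genes with this pattern is not given here. The log2 difference in response, KO2 minus KO1, was 0.68 (SE 0.34, limma adjusted p = 0.99998). With the suffix as a block the SE was 0.26 and the limma adjusted p 0.9995. The difference failed the correction for multiple tests, and it rests on 37 to 105 reads per library. HSPA1L passed the filter through KO groups in which it was higher, so the difference is a description.

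HSPA7, which did not pass the filter and entered no test, had 143 reads over the 6 bortezomib libraries and 0 over the 6 vehicle libraries. Its transcript shares sequence with HSPA6, whose reads rose from 74 to 71433 over the same libraries, and the part of misassigned HSPA6 reads in the 143 was not tested.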

How the results depend on the processing

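With the replicate block by suffix, with unsuffixed libraries on the level of R1, and with voom and the block, 8 members were called for bortezomib in the mean of the 3 lines, 7 in the control, 8 in KO1 and 9 in KO2. With the block, rescaling to a common sum gave 8, 7, 8 and 8, and quantile normalization 8, 7, 8 and 10. The plain blocked fit called 54.9%, 32.4%, 27.7% and 27.0% of all genes in these comparisons. The shares in the other blocked fits are not given here, so their counts cannot be read as particular to the members. Each of these 5 blocked fits called 1 member for the knockout in vehicle and 1 in bortezomib, except 2 in bortezomib with unsuffixed libraries on the level of R1. Comparing KO1 and KO2, voom with the block called 1 member (HSPA2), and the share of all genes in that fit is not given here. Leaving out 1 library gave 5 members in the mean of the 3 lines (8 to 9 with the block), 1 to 3 in the control (6 to 7), 1 to 3 in KO1 (6 to 8) and 1 to 3 in KO2 (7 to 9). It gave 0 for the knockout at either treatment (1 with the block), and 0 for the interaction and for KO1 against KO2. The causes were not tested, beyond the fewer samples of the left-out fits. The share of all genes called in each left-out fit is not given here.

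Signs turned for small differences. HSPA2 in the control line was -0.0082 and became 0.071 under quantile normalization, with or without the block, and 0.019 without mitochondrial genes. HSPA6 for the knockout in bortezomib was 0.032 and became -0.093 under quantile normalization (-0.083 with the block) and -0.024 under voom. Leaving out 1 library moved the HSPA1B interaction from -0.70 to 0.41 (-0.78 to 0.48 with the block) and that of HSPA8 from -0.25 to 0.93 (-0.090 to 0.77). It moved HSPA8 in the control line from -0.090 to 1.09, HSPA1L there from -0.22 to 0.00093 (-0.27 to 0.055) and HSPA2 there from -0.47 to 0.45 (-0.26 to 0.24). HSPA2 in KO1 ranged from -0.37 to 0.33 (-0.060 to 0.025). For the knockout in bortezomib, HSPA6 ranged from -0.32 to 0.38 (-0.52 to 0.29) and HSPA4L, with the block, from -0.24 to 0.60. For the knockout in vehicle, HSPA6 ranged with the block from -0.28 to 0.53.

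Over all genes, the blocked fit called 6690 in the mean of the 3 lines against 1415, and 3952, 3378 and 3297 in the single lines against 57, 29 and 39. Without the block, the settings gave 661 to 1856, 11 to 178, 12 to 81 and 24 to 127. For the knockout they gave 17 to 53 in vehicle and 7 to 97 in bortezomib, against 42 and 20, and 754 and 934 with the block. For the interaction they gave 0 to 7 against 0, and 140 under voom with the block. For KO1 against KO2 they gave 1 to 42 against 8, and 366 with the block. Few reads limit HSPA6 in vehicle, HSPA12B in bortezomib, HSPA1L and HSPA7.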
